A study of Mus musculus with 10 samples.

Results

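The genes described here are 34 mouse genes around the transcription factor ATF4, taken by symbol from a table of 55866 genes. They are Atf4 itself, the upstream kinases Eif2ak3 and Eif2ak4, and genes that depend on ATF4 or make, recycle or import amino acids. The table counts polyadenylated RNA from iKCs, 1 mouse cell line, after lentiviral delivery of 1 of 4 vectors, so the 4 groups share the line, the transduction and the sort. One group carried a vector for overexpression of miR-342-3p (n = 3) and a second its control with a mutated miR-342-3p (n = 2). The third carried a miR-342-3p sponge, a transcript with binding sites that hold the microRNA back (n = 3), and the fourth a sponge control with a scramble sequence (n = 2). Adherent cells were detached with trypsin and sorted for the marker mOrange and for viability. The titles call the libraries of a group biological replicates and do not say how the cultures were separated, so a p-value here sets a difference against the scatter among these libraries, which may be technical.

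ATF4 is translated when kinases phosphorylate the initiation factor eIF2, as happens when amino acids run short, when unfolded proteins collect in the endoplasmic reticulum or when mitochondria are impaired. It binds with C/EBP partners to composite elements near its targets and raises enzymes of asparagine, serine, glycine and proline synthesis, amino acid transporters and tRNA synthetases. Its targets also include the proteins that end the response, among them a pseudokinase that binds ATF4 and a subunit of the phosphatase that acts on eIF2. In macrophages this programme is known to follow inflammatory stimuli and nutrient supply.

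Of the 34 genes, 32 passed the expression filter, as did 15767 genes of the table. Vldlr, a lipoprotein receptor, had 0 reads in all 10 libraries, which allows at most 0.117 CPM (counts per 1000000 of the library, with TMM scaling) in the shallowest library, by counting error only. Stc2, a secreted stanniocalcin, had 1 read in mutated replicate 1, 1 in sponge replicate 1 and 0 elsewhere. Neither was tested. In the deposited table, sponge replicate 3 and scramble replicate 1 stand in 1 field and were split by likelihood; no member was lost in the split. Libraries held 25712732 to 59259988 gene counts, and the 34 genes took 0.239% (sponge replicate 2) to 0.373% (overexpression replicate 1) of them.

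The cells carried macrophage transcripts: 11 of 16 macrophage markers stood at 93.0 CPM or more in every library, with Csf1r, the receptor of colony-stimulating factor 1, at 1779 to 2334 CPM. The Kupffer cell markers Clec4f and Timd4 had 0 reads in all libraries and Vsig4 at most 0.0934 CPM. Marco and Cd5l, also among the macrophage markers, were low but detected in every library, reaching 4.26 and 2.79 CPM. Of 23 markers of other liver and blood cells, 6 had 0 reads in every library and 4 were expressed enough to be tested; the summed level of the 23 was 21.6 to 31.5 CPM, most of it Kdr. Mitochondrial transcripts took 1.27% to 1.48% of counts. Reads over the Mir342 hairpin were at 8.22, 11.3 and 9.41 CPM with overexpression, 2.86 and 3.22 CPM in the mutated control, and 0 in the 5 sponge and scramble libraries.

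Sequences were read to show where a microRNA or a factor of the ATF4 family could match these genes by letters. The mature microRNA, from RefSeq on GRCm38.p6 (chr12:108658680-108658702, plus strand), has its seed, bases 2 to 8, in capitals. Its 7-base match GTGTGAG lies in the annotated 3′ UTR (GENCODE vM21) of 3 of the 32 tested members, or 9.38%, against 15.2% of 11916 tested genes with a UTR. The matching stretches of those 3 members are shown, since they are the tested members with this 7-base match, and the capitals mark the match. Only the longest annotated UTR of each gene was read, and shorter or shifted matches to the seed were not searched.
miR-342-3p: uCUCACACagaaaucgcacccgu
Trib3, base 30 of 785: tcagctccaagGTGTGAGttgagtacctga
Slc7a1, base 563 of 5030: aacacagcacgGTGTGAGccgttcaggtgt
Slc7a1, base 578 of 5030: gagccgttcagGTGTGAGccgctcatctcg
Slc7a1, base 3506 of 5030: tggcaacagcaGTGTGAGAgaccgggttcc
Slc1a4, base 904 of 2086: actactcgcttGTGTGAGAcctatggttag
The sites of Slc1a4 and the last one of Slc7a1 have the further A of an 8mer. Vldlr, which had no reads, has an 8mer at base 3555. The other 30 members have no such match in the annotated UTR, Atf4, Ddit3, Asns, Chac1 and Gcat among them.

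The composite element of ATF4 and C/EBP factors was searched as TGATGNAA on both strands, in RefSeq windows of 300 bases (250 before to 50 after a start site, GRCm38.p6). RefSeq gave a window for 30 of the 34 members, with 37 windows in all, and 8 of the windows, 1 each in 8 genes, held the letters (21.6%), against 3.97% of 32851 windows of all genes. Since the list was made of genes tied to ATF4, its larger share is no separate result. Slc7a5, Slc1a5, Eif4ebp1 and Cth had no window. Stretches of the 7 expressed genes are shown on the strand of the gene, the match in capitals; TTGCATCA and TTACATCA are the same element read on the other strand.
Trib3 (chr2:152344028-152344057, minus strand): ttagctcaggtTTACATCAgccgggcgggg
Asns (chr6:7693214-7693243, minus strand): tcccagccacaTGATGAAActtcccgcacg
Chac1 (chr2:119351038-119351067, plus strand): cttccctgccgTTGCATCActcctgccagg
Atf3 (chr1:191183425-191183454, minus strand): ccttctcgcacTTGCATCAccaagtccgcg
Pycr1 (chr11:120643833-120643862, minus strand): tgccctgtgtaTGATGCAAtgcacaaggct
Slc1a4 (chr11:20332699-20332728, minus strand): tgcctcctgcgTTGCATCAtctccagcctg
Nupr1 (chr7:126625562-126625591, minus strand): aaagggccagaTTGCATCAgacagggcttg
The eighth gene was Vldlr. Counted from the annotated start, the match begins at −23 in Asns, −193 in Chac1, −110 in Atf3 and Nupr1, −103 in Pycr1, −4 in Slc1a4 and 15 in Trib3. The whole Asns window (chr6:7693160-7693459, minus strand) is given because Asns is the textbook case of such an element.
Asns window: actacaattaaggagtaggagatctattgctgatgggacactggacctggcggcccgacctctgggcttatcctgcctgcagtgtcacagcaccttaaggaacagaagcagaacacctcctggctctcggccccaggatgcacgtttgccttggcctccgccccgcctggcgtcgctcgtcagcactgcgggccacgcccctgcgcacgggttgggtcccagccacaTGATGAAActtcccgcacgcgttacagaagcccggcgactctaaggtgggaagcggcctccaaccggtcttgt
A match is a string of letters and not a measured binding site, and no match says only that these letters are not in the window.

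Levels of different members are compared here per kilobase of exon, as the mean over all 10 libraries. Atf4 (163.9 CPM per kb) and Atf3 (140.4) were highest, followed by Atf5 (82.1), Shmt2 (69.6) and Ddit3 (64.7). Asns stood at 35.8, Trib3 at 40.9 and Gcat at 7.497 CPM per kb. Ddit4 (0.609), Cth (0.851), Pycr1 (1.19) and Slc6a9 (1.27) were the lowest of the tested members. Transcription factors led the list, and the 6 transporters ran from 1.27 (Slc6a9) to 50.8 CPM per kb (Slc38a2).

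Before any comparison of vectors, the members were seen to move together between libraries of 1 group. Each value was set against the mean of the 4 group means on the log2 scale, and the median over the 32 members was 0.39, 0.42 and 0.09 in overexpression replicates 1, 2 and 3. It was 0.01 and −0.07 in the mutated control, −0.06, −0.49 and 0.15 in the sponge group and −0.19 and −0.02 in the scramble group. Over all genes tested the same median stayed between 0.00 and 0.01 in all 10 libraries, where scaling holds it. Overexpression replicates 1 and 2 were the highest libraries for 15 and 14 members, and sponge replicate 2 was the lowest for 26. Of all genes, those libraries were the highest for 21.3% and 9.63% and the lowest for 14.3%. Overexpression replicate 1 was also the lowest library for 23.0% of all genes, and for 2 members.

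**Figure D1:**
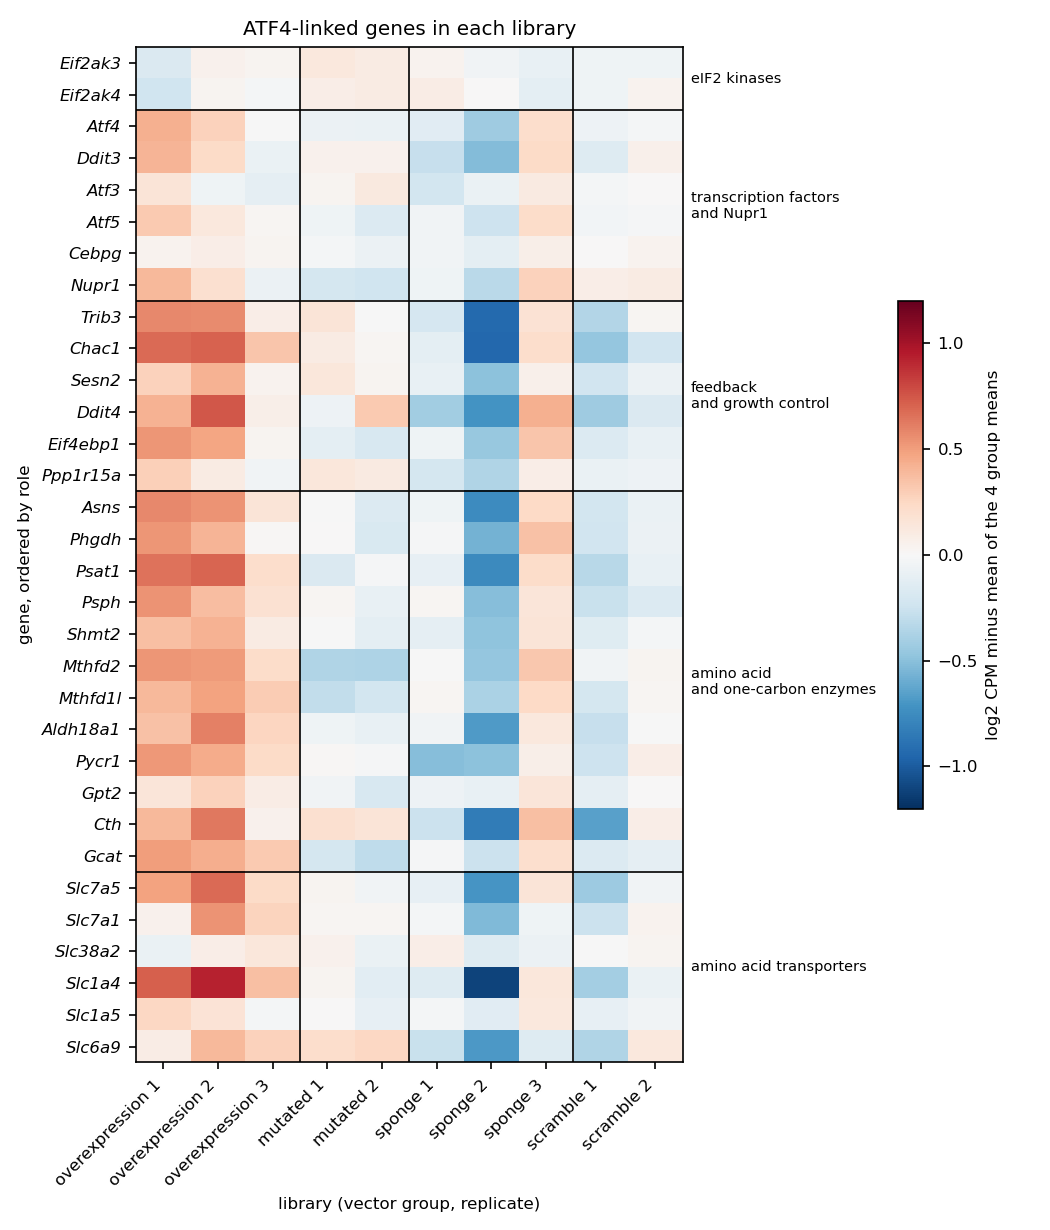
Heat map of the 32 tested members (rows, by role) in the 10 libraries (columns, by vector group). Colour gives log2 CPM minus the mean of the 4 group means; overexpression replicates 1 and 2 are red and sponge replicate 2 is blue for most rows below the eIF2 kinases.

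Among the members, the sponge group spread most. Its replicate 2 was the lowest of the 3 for 28 of 32 members and its replicate 3 the highest for 28, in the order 2, 1, 3 for 26. The median ratio of replicate 3 to replicate 2 was 1.54 over the members. Over the 12080 genes with a mean of at least 1 CPM it was 1.01, a value that scaling holds near 1. The ratio of the highest to the lowest sponge library had a median of 1.54 over the members and 1.15 over those genes. In the overexpression group, also of 3 libraries, these medians were 1.28 and 1.17. The control groups hold 2 libraries each, which makes such a ratio smaller. For 27 of 32 members the highest sponge library exceeded the lowest by a larger factor than separated overexpression from the mutated control. The 5 exceptions were Gcat, Mthfd1l, Mthfd2, Gpt2 and Eif2ak3. These counts of members were not made over all genes, so they have no background share. A range over single libraries is also not the same measure as a fold between groups. Sponge replicate 3 is 1 of the 2 split libraries, while replicate 2 was read as deposited. Mitochondrial transcripts took 1.40% of counts in replicate 2 and 1.43% in replicate 3. The part of the split or of any handling in this spread was not tested. The median SD within groups was 0.23 (log2) for the members and 0.14 for all genes tested.

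Between overexpression and the mutated control, the comparison for a gain of miR-342-3p, 1 member rose and most others were higher without passing. Gcat, a mitochondrial enzyme that turns an intermediate of threonine breakdown into glycine, passed with a 1.60-fold rise. An enzyme of the mitochondrial folate cycle, Mthfd2, had the largest fold change (1.73-fold) and missed the threshold. All 12 enzymes of amino acid and one-carbon synthesis had a log2 fold change above 0 (0.22 to 0.79, median 0.46), while both eIF2 kinases had one below 0 (−0.14 and −0.16).

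In numbers, edgeR called 1 of 32 members higher at an adjusted p under 0.05, where 0.247% of all genes tested were called higher, and 0 lower. At an unadjusted p under 0.05, 14 were higher (9.11% of all genes) and 0 lower (also 9.11% of all genes). In 20 members every overexpression library lay above both mutated libraries (18.9% of all genes), and in 2, the kinases Eif2ak3 and Eif2ak4, every one lay below (19.3% of all genes). The log2 fold change was above 0 in 28 of 32, with a median of 0.34, against −0.01 for all genes. Since the members rise and fall together from library to library, these counts are not 32 separate measurements. In bulk RNA, fewer cells with a programme and less RNA per cell cannot be told apart.

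**Figure D2:**
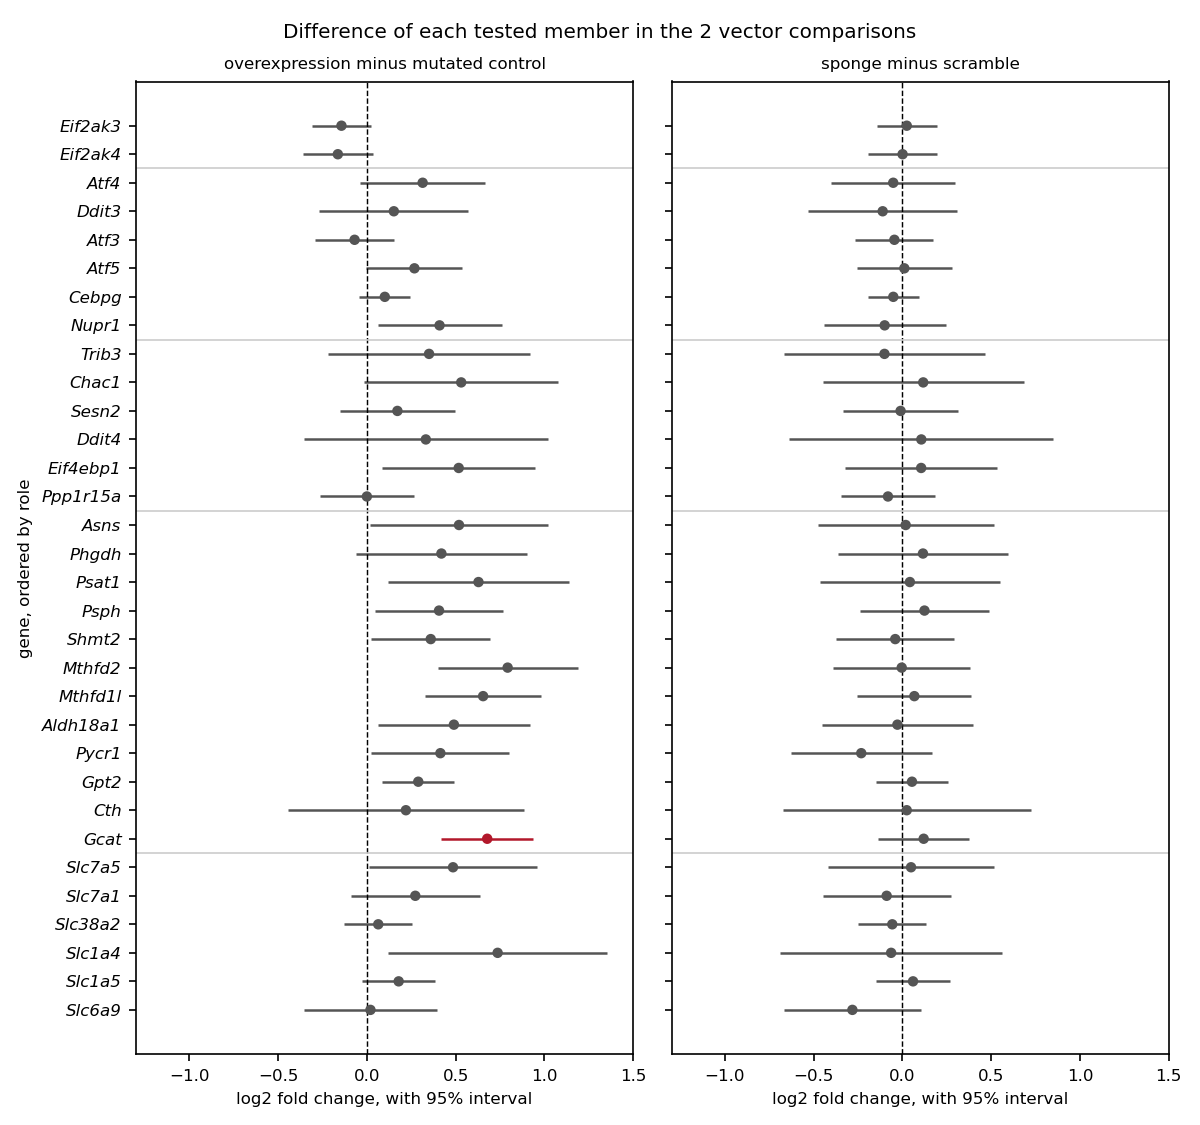
Log2 fold change (points) with 95% interval (lines) of each tested member, for overexpression minus mutated control (left) and sponge minus scramble (right). Red marks the only member with an edgeR adjusted p under 0.05, Gcat; on the right every interval spans 0.

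In the coordinates of the deposited table, given without a build since its header and the notes differ, Gcat spans bases 78915074 to 78926731 of chromosome 15. It had 30.3, 28.9 and 26.5 CPM with overexpression and 18.5 and 17.3 CPM in the mutated control. The sponge libraries had 21.2, 17.9 and 24.5 CPM and the scramble libraries 19.1 and 19.9 CPM. The 3 overexpression libraries were thus the 3 highest of all 10, and sponge replicate 2 fell between the mutated libraries. The mean was 28.6 ± 1.89 CPM (SD, n = 3) against 17.9 ± 0.837 (SD, n = 2), a log2 fold change of 0.68 (SE 0.12, 95% interval 0.42 to 0.94, edgeR adjusted p = 0.0383). Galr3, a gene on the same strand, shares 363 of the 2988 exonic bases of Gcat (12.1%), and itself had at most 0.0469 CPM.

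The Gcat call was lost without 7 of the 10 libraries, while its size moved little. The edgeR adjusted p was 0.0614 without overexpression replicate 1, 0.169 without replicate 2, 0.327 and 0.399 without mutated replicate 1 or 2, 0.0817 without sponge replicate 1 and 0.0905 and 0.0914 without scramble replicate 1 or 2. It stayed under 0.05 without overexpression replicate 3 (0.0234) and without sponge replicates 2 (0.0128) or 3 (0.00852). Across these 10 fits the log2 fold change was 0.63 to 0.74. Against the scramble control, which shares the overexpression libraries, it was 0.55 (SE 0.12, edgeR adjusted p = 0.152).

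The remaining genes are given by role, first the sensors. Eif2ak3 (PERK), the eIF2 kinase of the endoplasmic reticulum, had 35.4 to 41.3 CPM with overexpression and 42.6 to 43.7 in the mutated control. Eif2ak4 (GCN2), the kinase that senses uncharged tRNA, had 40.0 to 48.4 and 50.1 to 50.6 CPM. Neither passed (edgeR adjusted p = 0.339 and 0.344), and neither shared the library pattern: the median of the 2 was −0.21 in overexpression replicate 1 and −0.10 in sponge replicate 3, where the other roles had positive medians. An antisense gene, Gm43292, shares 8.05% of the exonic bases of Eif2ak3, and strand was not used in counting.

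Atf4 (chromosome 15, 80139385 to 80141742) is regulated mainly by translation, which transcript counts do not see. Its transcript had 509, 458 and 377 CPM with overexpression, 362 and 359 in the mutated control, 344, 282 and 437 in the sponge group and 362 and 373 in the scramble group. The overexpression libraries lay above both mutated libraries, replicate 3 by the least, and sponge replicate 3 lay between overexpression replicates 2 and 3. Its log2 fold change was 0.31 (SE 0.16, edgeR adjusted p = 0.321) against the mutated control and −0.05 (SE 0.16, 95% interval −0.40 to 0.30) for the sponge against scramble.

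Ddit3 (CHOP; chromosome 10, 127126643 to 127132157), the factor tied to cell death in prolonged stress, had 145, 128 and 103 CPM with overexpression and 113 and 113 in the mutated control. It had 90.3, 76.1 and 128 CPM with the sponge and 98.1 and 114 with scramble. Overexpression and mutated libraries overlapped, and the sponge libraries held both the lowest value and one equal to overexpression replicate 2. For Ddit3 the log2 fold change was 0.15 (SE 0.19, edgeR adjusted p = 0.673). Mars1, an antisense neighbour, shares 3.97% of its exonic bases.

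Among the other factors, Atf3, a repressor induced by stress and by inflammatory signals, ran from 260 to 338 CPM over all libraries with a log2 fold change of −0.07. Atf5, an activator linked to mitochondrial stress, ran from 136 to 200 CPM (0.27), and Cebpg, a C/EBP partner of ATF4, from 117 to 134.5 CPM (0.10). Nupr1, a small chromatin-bound stress regulator, ran from 44.6 to 72.7 CPM (0.41, edgeR adjusted p = 0.224), with the mutated libraries near the bottom. Cebpg had the smallest spread within groups of the tested members (SD 0.06, log2).

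The genes of feedback and growth control came next, with a median log2 fold change of 0.34 (5 of 6 above 0). Trib3 (chromosome 2, 152179342 to 152185952), the pseudokinase that binds ATF4, had 124, 123 and 88.0 CPM with overexpression, 92.6 and 82.9 in the mutated control, 72.2, 43.5 and 93.5 with the sponge and 65.0 and 84.2 with scramble. Sponge replicate 2 was the lowest library and overexpression replicate 3 overlapped the mutated control. Trib3 had a log2 fold change of 0.35 (SE 0.26, edgeR adjusted p = 0.468) against the mutated control and 0.58 (SE 0.26, edgeR adjusted p = 0.37) against scramble.

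Chac1 (chromosome 2, 119181710 to 119184862), which degrades glutathione, had 12.2, 12.4 and 9.61 CPM with overexpression and 8.17 and 7.74 in the mutated control. With the sponge it had 7.02, 3.96 and 8.83 CPM and with scramble 5.53 and 6.49. The 3 overexpression libraries were the highest of the 10, and sponge replicate 2 again the lowest, a factor of 2.23 under replicate 3. Chac1 had a log2 fold change of 0.53 (SE 0.25, edgeR adjusted p = 0.284) against the mutated control and 0.93 (SE 0.25, edgeR adjusted p = 0.205) against scramble, the largest of any member there. DESeq2 called it in the second (adjusted p = 0.0237), where that tool called 1.48% of all genes.

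Of the other 4, Eif4ebp1, a repressor of cap-dependent translation, had a log2 fold change of 0.52 (edgeR adjusted p = 0.217). Ddit4 and Sesn2, inhibitors of the mTORC1 kinase, had 0.33 and 0.17, with Ddit4 at 0.611 to 1.704 CPM. Ppp1r15a (GADD34), the phosphatase subunit that ends eIF2 phosphorylation, had means of 132 ± 15.3 CPM (SD, n = 3) with overexpression and 132.1 ± 1.49 (SD, n = 2) in the mutated control, and the 95% interval of its log2 fold change was −0.27 to 0.27.

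**Figure D3:**
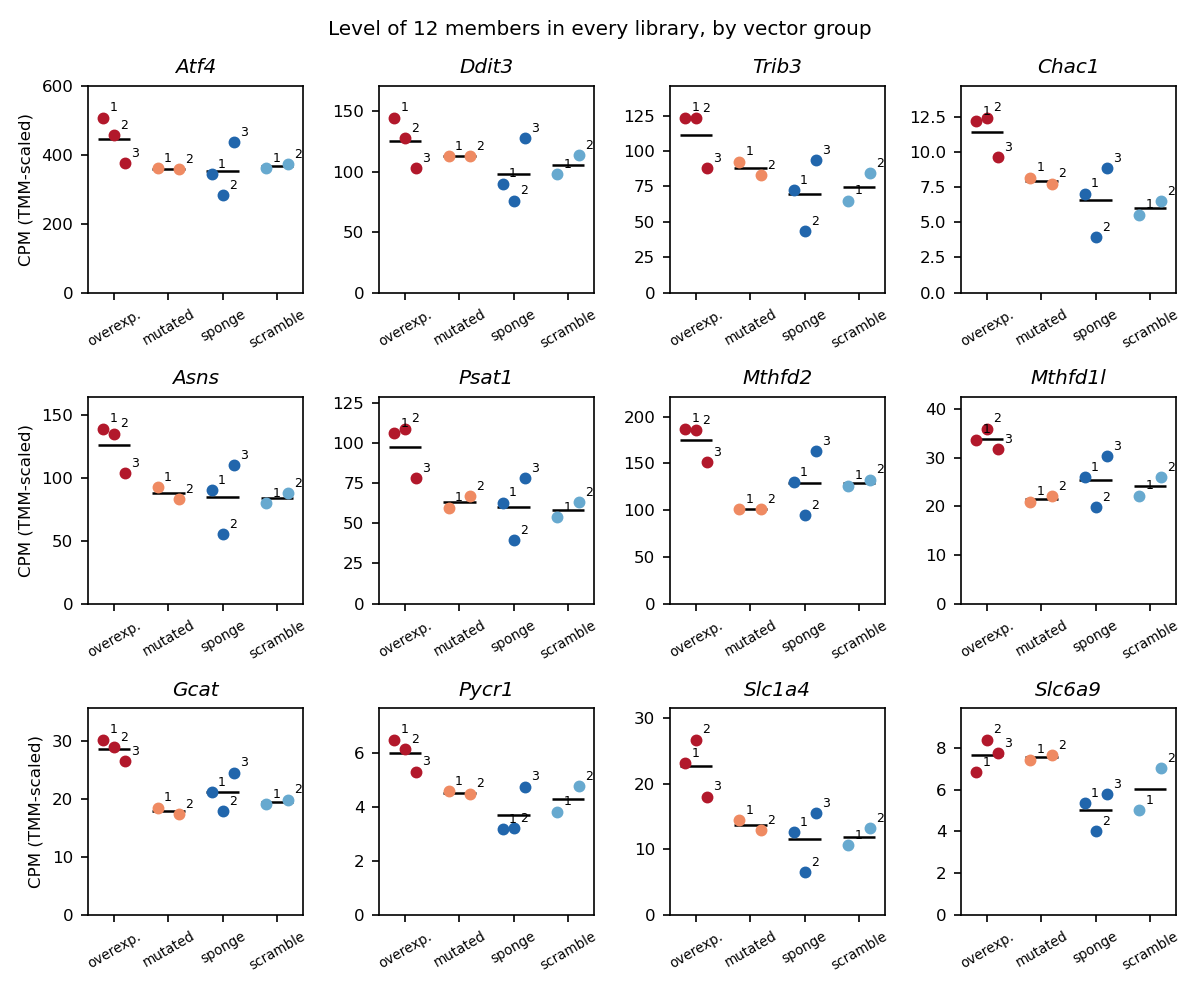
Level in CPM of 12 members in every library (points, numbered by replicate) by vector group, with the group mean as a bar; each axis starts at 0. Sponge replicate 2 lies under sponge replicate 3 in all 12 panels, and the 3 overexpression libraries lie above both mutated libraries in 9 of them.

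Among the enzymes, Asns (chromosome 6, 7675169 to 7693254), which makes asparagine, had 139.5, 135 and 104 CPM with overexpression and 93.0 and 83.4 in the mutated control. The sponge libraries had 90.1, 55.1 and 110.4 CPM and the scramble libraries 80.0 and 88.1. The overexpression libraries lay above both controls, but sponge replicate 3 exceeded the lowest of them. For Asns the log2 fold change was 0.52 (SE 0.23, edgeR adjusted p = 0.263) against the mutated control and 0.59 against scramble (SE 0.23, edgeR adjusted p = 0.319).

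Psat1 (chromosome 19, 15882042 to 15924701), the aminotransferase of serine synthesis, had 106, 109 and 78.0 CPM with overexpression and 59.7 and 66.8 in the mutated control. It had 62.8, 39.6 and 78.3 CPM with the sponge and 53.6 and 63.1 with scramble, so that sponge replicate 3 stood just above overexpression replicate 3. Psat1 had a log2 fold change of 0.63 (SE 0.23, edgeR adjusted p = 0.206). Phgdh and Psph, which catalyse the steps before and after it, had 0.42 and 0.41 (edgeR adjusted p = 0.331 and 0.24). In Psph, 10.4% of exonic bases are shared with the antisense gene Cct6a.

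The mitochondrial folate enzymes come next. Mthfd2 (chromosome 6, 83282673 to 83302890) had 187, 186 and 151.5 CPM with overexpression, 101 and 101 in the mutated control, 130, 94.5 and 163 with the sponge and 126 and 133 with scramble. Both mutated libraries lay under both scramble libraries (log2 fold change −0.36, SE 0.19, edgeR adjusted p = 0.845). Overexpression gave Mthfd2 a log2 fold change of 0.79 (SE 0.18, edgeR adjusted p = 0.0809) against the mutated control and 0.44 (SE 0.18, edgeR adjusted p = 0.333) against scramble. Sponge replicate 3 lay above overexpression replicate 3, and the sponge group spanned both controls.

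Mthfd1l (chromosome 10, 3923118 to 4117081), which releases formate from mitochondria, had 33.7, 36.0 and 31.8 CPM with overexpression and 20.9 and 22.1 in the mutated control. It had 26.1, 19.8 and 30.3 CPM with the sponge and 22.2 and 26.1 with scramble. Here the overexpression libraries were the 3 highest of all 10. Mthfd1l had a log2 fold change of 0.65 (SE 0.15, edgeR adjusted p = 0.0809) and 0.49 against scramble (SE 0.15, edgeR adjusted p = 0.247). Shmt2, the mitochondrial enzyme that moves a carbon from serine to folate, had 0.36 (edgeR adjusted p = 0.254). DESeq2 called Mthfd2 and Mthfd1l beside Gcat (adjusted p = 0.000953 and 0.00272), 3 members where it called 3.17% of all genes. By edgeR both passed without sponge replicate 2 (adjusted p = 0.0190 and 0.0213) and without sponge replicate 3 (0.0189 and 0.0246). Mthfd2 alone of these passed without overexpression replicate 3 (0.0413). These 3 fits called 143, 252 and 279 genes in all, in the same order, against 85 with every library. Neither passed without overexpression replicate 1, without overexpression replicate 2 or without sponge replicate 1. Leaving out a mutated or a scramble library leaves a lone library in that group. For Mthfd2 and Mthfd1l those fits are covered by size only, in the ranges that follow. Over all alternative settings the log2 fold change was 0.74 to 0.90 for Mthfd2 and 0.61 to 0.71 for Mthfd1l.

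Pycr1 (chromosome 11, 120526538 to 120534595), the last enzyme of proline synthesis, had 6.48, 6.14 and 5.29 CPM with overexpression and 4.56 and 4.48 in the mutated control. With the sponge it had 3.16, 3.21 and 4.73 CPM and with scramble 3.81 and 4.77. The overexpression libraries were again the 3 highest, and sponge replicates 1 and 2 the lowest. Pycr1 had a log2 fold change of 0.41 (SE 0.18, edgeR adjusted p = 0.255). Aldh18a1, which starts proline synthesis, had 0.49, Gpt2, the mitochondrial alanine aminotransferase, 0.29, and Cth, which makes cysteine from cystathionine, 0.22 at 1.26 to 3.50 CPM.

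Transporters had a median log2 fold change of 0.23, with 6 of 6 above 0 and none called. Slc1a4 (chromosome 11, 20252180 to 20282713), which carries serine, alanine and cysteine, had 23.1, 26.8 and 18.01 CPM with overexpression and 14.4 and 12.9 in the mutated control. It had 12.6, 6.52 and 15.4 CPM with the sponge and 10.6 and 13.3 with scramble. The overexpression libraries were the 3 highest, and the ratio of 2.37 between sponge replicates 3 and 2 was the widest of the tested members. Slc1a4 had a log2 fold change of 0.74 (SE 0.28, edgeR adjusted p = 0.218). Its UTR holds an 8mer of miR-342-3p, and each overexpression library lay above each control library. Whether the microRNA acts on this transcript was not tested.

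Slc6a9 (chromosome 4, 117691703 to 117732395), a glycine transporter, had 6.87, 8.43 and 7.78 CPM with overexpression and 7.46 and 7.67 in the mutated control. With the sponge it had 5.36, 4.00 and 5.79 CPM and with scramble 5.03 and 7.05. Overexpression and mutated libraries overlapped (log2 fold change 0.02, SE 0.17), while 4 of the 5 sponge-type libraries lay under all 5 hairpin libraries. An antisense gene, Ccdc24, shares 27.8% of its exonic bases and itself had at most 0.0863 CPM.

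Of the others, Slc7a5, the large neutral amino acid carrier, had a log2 fold change of 0.49 (edgeR adjusted p = 0.265) and Slc7a1, the arginine carrier, 0.27 (edgeR adjusted p = 0.389). Slc7a1 holds 3 matches to the seed and had 144, 201 and 167 CPM with overexpression against 142 and 141 in the mutated control, so each overexpression library lay above both. Slc1a5 and Slc38a2, glutamine carriers, had 0.18 and 0.06. Trib3, the remaining expressed gene with a match, had 1 overexpression library between the mutated ones and the others above them. An action of the microRNA on Slc7a1 or Trib3 was not tested either.

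Sponge against scramble asked what holding the microRNA back changes, and no member was called. By edgeR 0 of 32 members passed (0% of all genes), and 0 passed at an unadjusted p under 0.05 (2.33% of all genes); DESeq2 and limma-voom also called 0 members. The log2 fold change ran from −0.28 (Slc6a9) to 0.12 (Psph), with 16 above 0 and a median of −0.00. In no member did the sponge and scramble libraries separate (15.2% of all genes). The 95% intervals were wide where the sponge libraries spread: −0.69 to 0.56 for Slc1a4, −0.67 to 0.46 for Trib3 and −0.48 to 0.51 for Asns. For Gcat the interval was −0.14 to 0.37. The median over members was 0.13 without sponge replicate 2 and −0.16 without sponge replicate 3, and −0.25 without both split libraries, so its sign followed the libraries included.

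**Figure D4:**
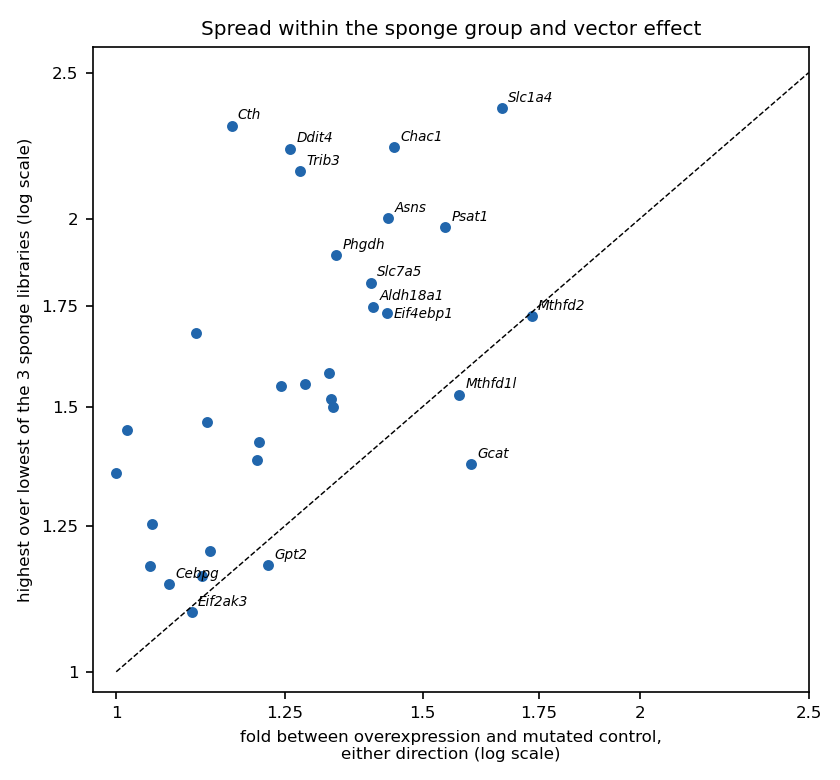
For each tested member, the ratio of the highest to the lowest sponge library against the fold between overexpression and mutated control (either direction; both axes logarithmic). Of 32 points, 27 lie above the dashed line of equality, and Gcat, Mthfd1l, Mthfd2, Gpt2 and Eif2ak3 lie under it. The axes hold unlike measures, and the same count was not made over all genes.

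The controls were compared with each other because overexpression was read against each. Mutated minus scramble gave 0 called members (0.0254% of all genes) and 0 at an unadjusted p under 0.05 (6.47%); DESeq2 and limma-voom called 0 members too. The median log2 fold change was 0.08, with 22 of 32 above 0. Both mutated libraries lay above both scramble libraries in 10 members (24.1% of all genes) and under them in 7 (24.2%), shares of the same order as the background. The estimates ran from −0.36 (Mthfd2) to 0.41 (Ddit4). In a fit of those 2 groups alone, 4 members passed: Mthfd2 (−0.36) and Nupr1 (−0.31) lower, Sesn2 (0.23) and Ppp1r15a (0.19) higher. That fit rests on 4 libraries and called 574 genes in all.

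Overexpression minus scramble, which shares its libraries with comparisons above, gave 0 called members (0.0444% of all genes) by edgeR and limma-voom and 4 by DESeq2 (1.48% of all genes), namely Chac1, Psph, Slc7a5 and Gcat. At an unadjusted p under 0.05, 18 members were higher (6.25% of all genes) and 0 lower, and in 23 every overexpression library lay above both scramble libraries (15.1% of all genes). The median log2 fold change was 0.42, with 31 of 32 above 0, against −0.01 for all genes. Side by side, the log2 fold change against the mutated control and against scramble was 0.53 and 0.93 for Chac1, 0.74 and 0.93 for Slc1a4, 0.63 and 0.74 for Psat1, 0.49 and 0.70 for Slc7a5 and 0.68 and 0.55 for Gcat. Without sponge replicate 3, which is in neither group, edgeR called Gcat here (adjusted p = 0.0458), among 37 genes in all.

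The pooled hairpin vectors (overexpression and mutated) were set against the pooled sponge vectors (sponge and scramble), since the 2 kinds differ besides the microRNA. The hairpin side includes the overexpression libraries, so kind of vector and gain of the microRNA cannot be told apart in it. No member passed with edgeR (0.241% of all genes) or limma-voom, and DESeq2 called 2, Chac1 and Slc6a9 (2.54% of all genes). At an unadjusted p under 0.05, 13 members were higher (6.63% of all genes), and the median log2 fold change was 0.22. In no member did the 5 libraries of 1 kind lie apart from the 5 of the other (3.68% of all genes). Slc6a9 had 0.46 (SE 0.12, edgeR adjusted p = 0.132) and Chac1 0.60 (SE 0.18, edgeR adjusted p = 0.171). Without sponge replicate 3, edgeR called Chac1 (0.74, adjusted p = 0.0464) and Pycr1 (0.49, adjusted p = 0.0457), among 144 genes in all.

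Whether the overexpression effect differed from the sponge effect was tested directly. The difference passed in 0 members (0% of all genes) by edgeR, DESeq2 and limma-voom, with 5 higher at an unadjusted p under 0.05 (4.24% of all genes): Mthfd2, Mthfd1l, Pycr1, Nupr1 and Gcat. The median was 0.33, and 0.63 without both split libraries. In the test of any difference among the 4 groups, edgeR called 0 members (0.419% of all genes) and 16 had an unadjusted p under 0.05 (16.1%). The smallest adjusted p was that of Gcat (0.0609). DESeq2 called 9 members there (5.38% of all genes) and limma-voom 0. Without sponge replicate 3, edgeR called 5 (Chac1, Mthfd2, Mthfd1l, Pycr1 and Gcat) among 273 genes in all, and without sponge replicate 2 it called Gcat among 47, against 66 genes with every library.

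Related gene lists were read library by library in the same way. The 20 cytosolic tRNA synthetases, which load amino acids onto tRNA and of which many are ATF4 targets, had medians of 0.26, 0.27 and 0.02 in the overexpression libraries and −0.07, −0.31 and 0.11 in the sponge libraries. Within both groups that is the order of the members' medians, at a smaller size. With overexpression against the mutated control 20 of 20 had a log2 fold change above 0 (median 0.22, 8 at an unadjusted p under 0.05, 0 called). The 14 mitochondrial proteostasis genes had a median of 0.14, with 11 above 0 and 0 called.

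Targets of the other arms of the unfolded protein response had their highest medians in other libraries. The 21 listed targets of XBP1 and ATF6, which serve folding and degradation in the endoplasmic reticulum, were highest in the mutated libraries (medians 0.13 and 0.21). They had a median log2 fold change of −0.19 for overexpression against the mutated control, with 4 of 21 above 0 and 10 lower at an unadjusted p under 0.05 (9.11% of all genes were lower by that rule). Against scramble the overexpression median was 0.03, and mutated minus scramble had 0.21 with 20 of 21 above 0. None of them was called in any of these 3 comparisons.

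**Figure D5:**
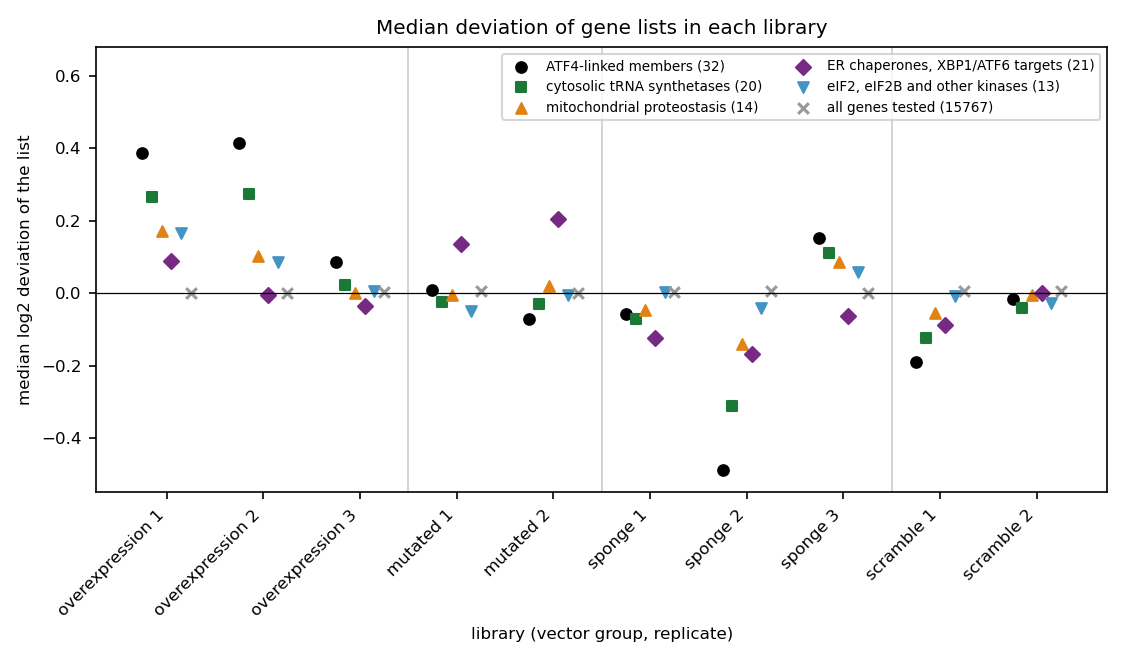
Median log2 deviation of 6 gene sets in each library, from the mean of the 4 group means. The members (black) and the tRNA synthetases (green) are high in overexpression replicates 1 and 2 and low in sponge replicate 2. The endoplasmic reticulum genes (purple) are highest in the mutated libraries. All genes tested stay near 0, where scaling holds them.

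Other parts of amino acid handling showed smaller medians. The 13 genes of eIF2, its exchange factor, remaining kinases and phosphatase partners had a median of 0.09 (9 above 0, 0 called), and 19 further one-carbon and glycine enzymes 0.07 (16 above 0, 0 called). Among 16 other amino acid transporters the median was −0.06, and 1 fell: Slc7a11, the cystine carrier and itself a known ATF4 target, by 1.49 on the log2 scale (SE 0.16, edgeR adjusted p = 0.00632). It had 11.99, 15.7 and 17.5 CPM with overexpression, 40.6 and 43.1 in the mutated control, 14.4, 11.6 and 12.3 with the sponge and 15.7 and 22.3 with scramble. Both mutated libraries lay above the other 8, with a log2 fold change of 1.13 against scramble (SE 0.18, edgeR adjusted p = 0.104), while overexpression against scramble gave −0.36 (SE 0.17, edgeR adjusted p = 0.383). Its partner Slc3a2 had 0.03 (SE 0.12).

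Marker lists were read beside these results. The 13 tested macrophage markers had medians from −0.06 to 0.05 over the 10 libraries, and immediate early genes, which respond to detachment and sorting, from −0.27 (sponge replicate 1) to 0.22 (mutated replicate 2), in another order than the members. Kdr was lower with overexpression (18.9 ± 1.47 CPM, SD, n = 3) than in the mutated control (26.04 ± 1.49, SD, n = 2; log2 fold change −0.47, edgeR adjusted p = 0.0352). Its means were 20.4 CPM with the sponge and 19.9 with scramble, and both mutated libraries lay above all others. Overexpression against scramble gave −0.08 for Kdr (SE 0.08, edgeR adjusted p = 0.684). Egr2, an immediate early factor, was higher in the hairpin than in the sponge vectors (0.71, edgeR adjusted p = 0.0401). The summed level of the markers of other cells was 21.6 to 24.7 CPM with overexpression, 29.3 to 31.5 in the mutated control, 24.5 to 25.5 with the sponge and 23.7 to 25.7 with scramble. The part of these differences in the member values was not tested.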

How the data were processed

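PolyA RNA of 10 libraries was analysed. The deposited values are raw counts of read pairs per gene, made by the authors with featureCounts 2.0.1 on GENCODE vM30 by gene name, with a minimum overlap of 10 bases and strand setting 0, per the file headers. FastQC 0.11.6, Trimmomatic, STAR 2.7.6a and GRCm38 are named in the submitters' processing notes, which do not say how that build goes with vM30. The command in the header names 12 libraries, of which 10 were analysed here.

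Sponge replicate 3 and scramble replicate 1 share 1 field (15 fields under 16 names). Each field was split by negative binomial likelihood (dispersion 0.1, a lead of at least 100 times) against the 8 intact libraries. On 4 pairs joined for the purpose, at least 99.9463% of genes were recovered, and 51 of 55866 genes were left out. Because of the joined field, the last column was taken as scramble replicate 2 by the order of names.

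Counts were tested with edgeR 4.0.16 in R 4.3.3 (TMM, filterByExpr, robust quasi-likelihood F test, all 10 libraries in 1 fit, 6 residual degrees of freedom), with Benjamini-Hochberg adjustment over 15767 genes and a threshold of 0.05. The fit was tried on simulated counts drawn gene by gene, so it was not tested on genes that move together as the members do. DESeq2 1.42.0, limma-voom (limma 3.58.1), other scaling and filters, replicate blocks and left-out libraries were alternatives. Totals of 25712732 to 59259988 counts set the precision, and floors cover counting error only. Groups were taken from the sample titles. All 34 members are named, with values in every library for those called, the 8 with the smallest p in the test of the 4 groups, and Atf4, Ddit3, Asns, Trib3 and Chac1; of other lists, called genes up to 3 a list. The members and lists were chosen with earlier results of these data known.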

Additional observations from a re-analysis of the deposited data

How the results depend on the processing

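Scaling by RLE, limma-voom and a filter at 1 CPM moved no count by more than 1.5 times. The other settings did, and the cause was not tested. Counts of members, then of all genes, are given as reported first. For overexpression minus mutated they were 1 and 85; with DESeq2 3 and 500, with no filter on low counts 18 and 1390, with only the groups compared 3 and 34, and without the split libraries 3 members. For sponge minus scramble they were 0 and 0, with DESeq2 1 gene and with no filter 24. For mutated minus scramble they were 0 and 4, with DESeq2 90 genes, with no filter 1 and 149, with only the groups compared 4 and 574, and without the split libraries 1 gene. For overexpression minus scramble they were 0 and 7, with DESeq2 4 and 234, with no filter 19 and 747, and without the split libraries 3 genes. For hairpin minus sponge vectors they were 0 and 38, with DESeq2 2 and 400, with no filter 17 and 660, and without the split libraries 6 genes. For the difference of effects they were 0 and 0, with DESeq2 48 genes and with no filter 11 and 331. For any difference they were 0 and 66, with DESeq2 9 and 849, with no filter 23 and 1707, and without the split libraries 1 member.

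Leaving out 1 library at a time gave 0 to 3 members and 0 to 279 genes for overexpression minus mutated, and 0 to 36 genes for mutated minus scramble. It gave 0 to 1 members and 1 to 37 genes for overexpression minus scramble, and 0 to 2 members and 4 to 183 genes for hairpin minus sponge vectors. It gave 0 to 7 genes for the difference, and 0 to 5 members and 12 to 273 genes for any difference. A lone library left in a group is assumed to vary like the others.

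With a replicate block by the number in the title, overexpression minus mutated had 0 members and 0 genes, mutated minus scramble 1 gene, overexpression minus scramble 3, hairpin minus sponge vectors 6 and any difference 5. With the block by the number in the description these were 0 and 0, 1, 5, 9 and 6. Gcat had log2 fold changes of 0.65 and 0.65 under the blocks (edgeR adjusted p = 0.208 and 0.255). Of 13 pairs, 1 by title (−0.38 to 0.14) and 0 by description (−0.38 to 0.09) had a correlation of deviations over 0.1. In the smaller groups the deviations of the libraries mirror each other, so the pairs are not separate. This check therefore cannot settle whether the numbers pair the libraries.

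Members under about 10 CPM, Chac1, Pycr1, Slc6a9, Cth and Ddit4, rest on the fewest counts, and groups of 2 or 3 libraries limit every comparison.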
